A study of Bos taurus with 16 samples.

Results

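The effect of 5-hydroxytryptophan (5-HTP) on gluteus medius muscle was examined by comparing the muscle RNA-Seq libraries of 4 Holstein bull calves supplemented with 5-HTP with those of 4 calves given saline (CON). These are 8 of the 16 libraries of the series, and the other 8 came from subcutaneous adipose tissue of the same calves. The calves were about 21 days old when supplementation began and drank milk replacer at 8 L per day. 5-HTP was given at 90 mg per day for 10 days, so the calves were older than 21 days at sampling. CON calves are numbered 1 to 4 and 5-HTP-supplemented calves 5 to 8. All calves were sampled after slaughter on the morning that followed the last day of supplementation, each library is 1 calf, and no calf was pooled with another. Loci that reached 10 counts in 4 or more muscle libraries were compared, which gave 15624 of the 42862 separate loci of the series (32370 loci had any count in muscle). A locus here is a gene model of the merged annotation, named by its symbol, by its Ensembl identifier or, where it has neither, by a number that starts with XLOC.

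5-HTP is the direct precursor of serotonin, and the enzyme that converts it acts in many peripheral tissues. Outside the brain, serotonin is made mainly in the gut and carried by platelets, and it acts on muscle, vessels and immune cells through a family of cell surface receptors and a reuptake transporter. Skeletal muscle is a mixture of contractile fibers, whose sarcomeres are held by giant scaffold proteins, with resident macrophages, vessels, connective tissue and fat cells between them, so that a bulk library carries RNA of all of these. In bulk tissue, fewer cells of a type and less RNA per cell cannot be told apart.

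The total count of a muscle library, with 1 row per locus, ranged from 22117810 to 25042040 in CON calves and from 18017558 to 25077800 in 5-HTP-supplemented calves, and a floor of 3 counts was worth 0.120 to 0.167 CPM, which are counts scaled by library size. Such a floor covers counting error alone. No pair of muscle libraries held counts within sampling noise of each other (the smallest chi-square per degree of freedom was 23.4). The library of CON calf 1 stood apart from the other 7. It lay at 1.96 on the first axis of the multidimensional scaling, where the others lay between -0.62 and 0.30, and its TMM factor (the scaling of edgeR for library composition) was 0.849 against 0.967 to 1.09 in the others. Spearman correlations between CON libraries were 0.946 to 0.974 with calf 1 and 0.970 to 0.974 without it, and those between 5-HTP libraries were 0.976 to 0.982. CON calf 2 lay alone on the second axis, at 1.43. Loci that were highest in these calves are therefore also given without them. The muscle label could be checked with few markers, because a symbol was at hand for 1 of 28 muscle fiber markers, TTN, whose locus held between 285 and 1712 counts in every muscle library and at most 11 counts in any adipose library.

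The likelihood ratio test of edgeR gave 34 loci that differed between 5-HTP-supplemented and CON muscle with an FDR at or under 0.20, which is 0.218% of the 15624 tested. Of these DEGs, 22 were lower (0.141%) and 12 were higher (0.0768%) in 5-HTP-supplemented calves. The lower loci included the immediate early genes EGR1 and FOS, the cytokine signal inhibitor CISH, the natriuretic peptide receptor NPR3, the sarcomeric genes TTN and IGFN1, and the complement genes CFD, CR2, C1QB and C1S. The higher loci included IFI47, ANKRD37, LMX1B, ASCC2 and a pair of loci named WDR86. A symbol was paired with 23 of the 34, another 4 had an Ensembl identifier alone, and 7 had a locus number alone. The quasi-likelihood test of edgeR, which adds the uncertainty of each dispersion estimate, gave 1 locus (0.0064%) at the same FDR, IFI47, and at an unadjusted P at or under 0.01 it gave 134 loci (0.858%), 92 lower and 42 higher. All 34 DEGs had a quasi-likelihood P at or under 0.01. With DESeq2, 30 of the 34 had an FDR at or under 0.20, and for 1 of the other 4 DESeq2 gave no FDR.

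With an unadjusted likelihood ratio P at or under 0.01, 175 loci were lower (1.12%) and 69 were higher (0.442%). These 244 loci are referred to as shifted loci and are used only to describe abundance and tissue bias. The groups did not overlap in 28 of the 34 DEGs, every calf of a treatment being higher than every calf of the other. Over all tested loci, this held for 187 loci higher in 5-HTP-supplemented calves (1.2%) and for 218 lower (1.4%). By exact permutation of the calves (log2(CPM + 0.001), two-sided), these 28 DEGs had p = 0.0286, which no comparison of 4 with 4 calves can go below. Groups that do not overlap always give this p, so it restates the separation and adds no further evidence. The 6 DEGs with overlapping groups were both WDR86 loci, AOC1, CR2, C1S and ENSBTAG00000045751.

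**Figure D1:**
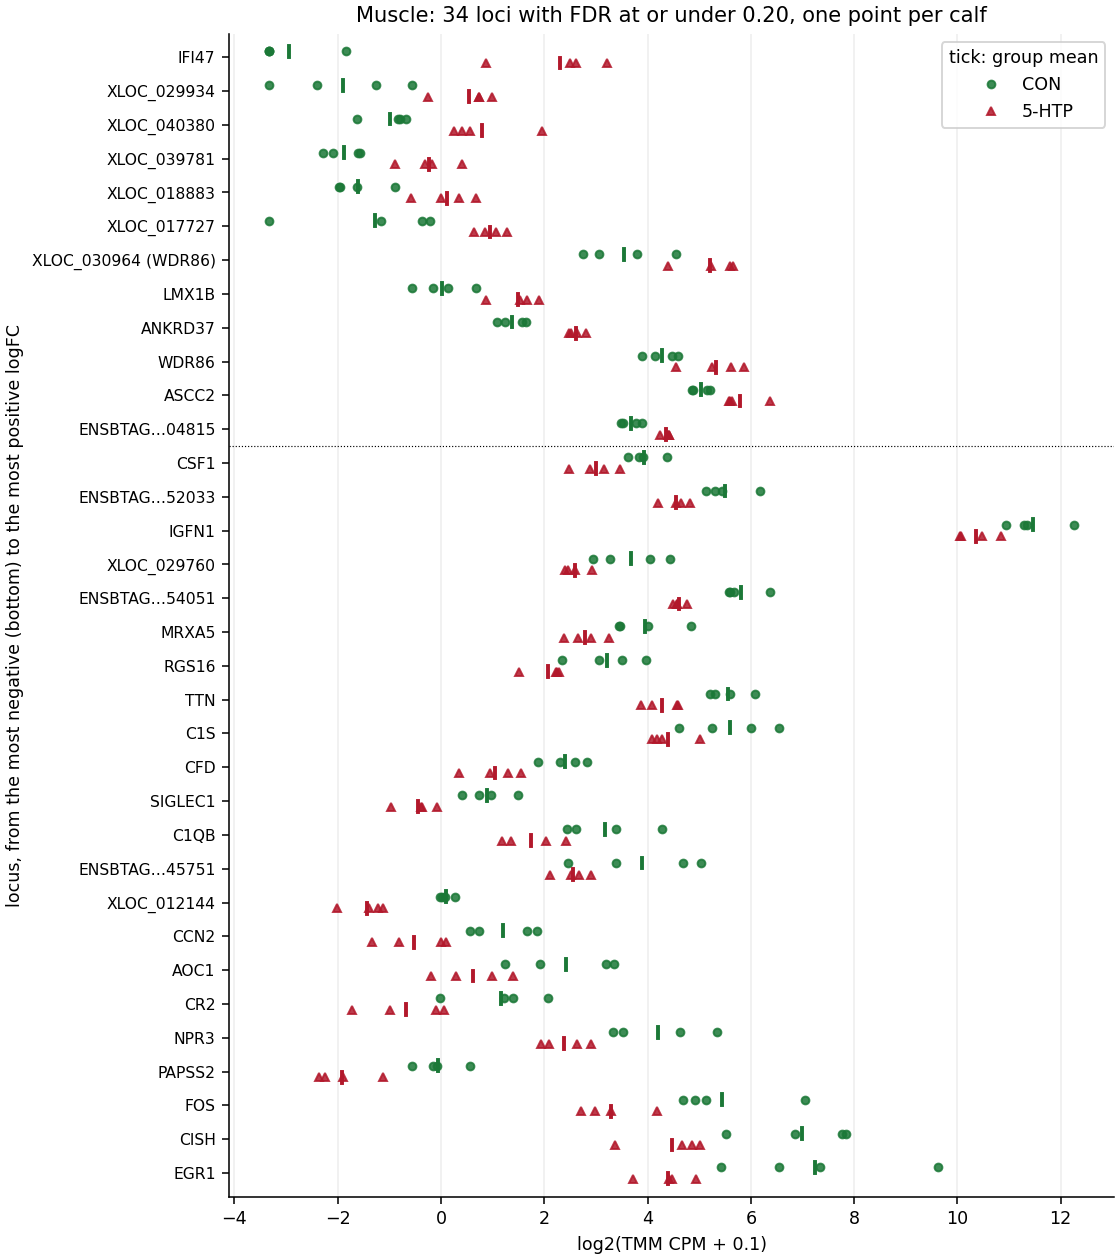
TMM-normalized CPM of the 34 DEGs on the log2(CPM + 0.1) scale, with 1 point per calf (green circles CON, red triangles 5-HTP), a tick at each group mean, and loci ordered by logFC from EGR1 at the bottom to IFI47 at the top. Loci above the dotted line (12) were higher in 5-HTP-supplemented calves, and many of the 22 below it have a wider spread of CON than of 5-HTP points.

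IFI47 (ENSBTAG00000015727), an interferon gamma inducible GTPase of the family that acts on intracellular pathogens, had the largest logFC of the DEGs. Its CPM in CON calves 1 to 4 was 0, 0, 0.178 and 0, from 0, 0, 4 and 0 counts. In calves 5 to 8, which received 5-HTP, it was 9.20, 5.99, 1.74 and 5.54 CPM, from 250, 127, 34 and 99 counts. Each 5-HTP-supplemented calf was thus above every CON calf, and 3 of 4 CON calves had no read. The logFC was 6.84 (standard error 0.89, FDR = 6.19e-15 by likelihood ratio), and the quasi-likelihood FDR of edgeR was 0.0383. Because the CON side rests on 4 counts, the ratio of summed counts scaled by library was 138, with a 95% exact counting interval of 53.4 to 507 that does not cover the spread between calves. IFI47 reached 10 counts in 5-HTP-supplemented calves alone, so it passed the filter only through the group in which it was high. The same held for XLOC_039781, while PAPSS2 and XLOC_012144 passed it only through CON calves, in which they were high. The fits that left out calves kept the loci of the main fit and do not check that selection. In them, IFI47 stayed at or under an FDR of 0.20 in all 8 fits that each left out 1 calf, with a logFC between 6.42 and 9.97. Without CON calves 1 and 2 its logFC was 5.96 (FDR = 5.10e-07, edgeR). The locus numbered just before it, XLOC_036550 (ENSBTAG00000004815), was also higher. It had 11.4, 11.2, 13.7 and 14.7 CPM in CON calves and 21.2, 20.9, 18.7 and 21.1 CPM in 5-HTP-supplemented calves, a narrow spread in both groups, which were apart. Its logFC was 0.69 (standard error 0.18, FDR = 0.131, edgeR). The loci numbered next to this pair, XLOC_036549 and XLOC_036552, had a logFC of -0.03 (standard error 0.37) and 0.01 (standard error 0.17), and neither passed the test.

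EGR1 and FOS encode transcription factors of the immediate early class, whose transcripts rise quickly and briefly after growth factors, contraction or stress. EGR1 (ENSBTAG00000010069) had 162, 785, 93.7 and 43.0 CPM in CON calves 1 to 4 and 30.5, 22.3, 21.2 and 13.0 CPM in calves 5 to 8 of the 5-HTP group. The groups did not overlap, but CON calf 2 held most of the CON signal. The logFC was -3.64 (standard error 0.65, FDR = 0.00155, edgeR), which became -2.19 without CON calf 2 and -1.65 without CON calves 1 and 2 (FDR = 0.00261, edgeR). FOS (ENSBTAG00000004322), in which the CON calves had the same order, was at 35.1, 132, 30.2 and 25.6 CPM, against 6.48, 7.78, 9.70 and 18.1 CPM in 5-HTP-supplemented calves. Its logFC was -2.41 (standard error 0.49, FDR = 0.00669, edgeR), or -1.53 without CON calf 2 and -1.41 without both calves (FDR = 0.0433, edgeR). Both genes therefore fell with and without the calf in which they were highest, by smaller amounts without it. CCN2 (ENSBTAG00000006367), a matricellular protein gene induced by growth factors and mechanical load, had 3.54, 3.05, 1.56 and 1.38 CPM in CON calves and 0.295, 0.472, 0.970 and 0.896 CPM in 5-HTP-supplemented calves. The groups were apart and the logFC was -1.87 (standard error 0.49, FDR = 0.123, edgeR). Without CON calf 1 or without CON calf 2 its FDR was 0.387 and 0.376.

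CISH (ENSBTAG00000022622), which encodes an inhibitor of cytokine and growth hormone receptor signaling, had 229, 116, 45.6 and 218 CPM in CON calves 1 to 4. In 5-HTP-supplemented calves it had 25.3, 28.9, 10.2 and 32.5 CPM. The lowest CON calf was above the highest 5-HTP-supplemented calf, and both groups were spread over several fold. The logFC was -2.65 (standard error 0.45, FDR = 1.11e-04, edgeR), a 6.28-fold lower level, and between -2.95 and -2.39 with any 1 calf left out. RGS16 (ENSBTAG00000004305), a regulator that shortens G protein signaling, had 11.3, 4.95, 8.25 and 15.5 CPM in CON calves and 4.79, 4.62, 2.76 and 4.59 CPM in 5-HTP-supplemented calves. Its groups nearly met at CON calf 2 and calf 5. The logFC was -1.25 (standard error 0.34, FDR = 0.160, edgeR), and 3 of the 8 fits that left out a calf kept it at or under 0.20. It was -1.48 without CON calf 2 (FDR = 0.00368) and -0.96 without CON calf 4, the highest calf (FDR = 0.286, edgeR).

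NPR3 (ENSBTAG00000007665), the receptor that clears natriuretic peptides, had 11.5, 40.7, 9.95 and 24.6 CPM in CON calves and 6.07, 4.15, 3.73 and 7.39 CPM in 5-HTP-supplemented calves. All CON calves were above all 5-HTP-supplemented calves, with calf 2 the highest. The logFC was -2.02 (standard error 0.41, FDR = 0.00524, edgeR) and -1.70 without CON calves 1 and 2 (FDR = 0.0106, edgeR). PAPSS2 (ENSBTAG00000003196), an enzyme that makes the sulfate donor used in sulfation of proteoglycans and hormones, was close to the floor in 5-HTP-supplemented calves. It had 26, 20, 13 and 22 counts in CON calves and 3, 2, 7 and 3 counts in 5-HTP-supplemented calves, or a mean of 0.897 ± 0.337 and 0.183 ± 0.121 CPM (SD over 4 calves). PAPSS2 thus passed the filter of 10 counts only through the group in which it was high. The logFC was -2.29 (standard error 0.58, FDR = 0.0666, edgeR), and without CON calves 1 and 2 it was -1.98 (FDR = 0.278, edgeR). AOC1 (ENSBTAG00000005419), a diamine oxidase that degrades histamine and putrescine, had 10.0, 9.04, 3.70 and 2.26 CPM in CON calves and 0.773, 1.89, 1.12 and 2.52 CPM in 5-HTP-supplemented calves. Calf 8 was above CON calf 4, so the groups overlapped. The logFC of AOC1 was -1.99 (standard error 0.50, FDR = 0.0933, edgeR), and without CON calves 1 and 2, the calves with the highest values, it was -0.93 (FDR = 0.925, edgeR).

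The lower DEGs with a symbol included complement genes (CFD, C1QB, C1S and CR2), the macrophage receptor SIGLEC1 and CSF1, a growth factor that acts on macrophages. How this compares with other complement or macrophage genes cannot be said. A symbol was at hand for 4 of 25 listed complement genes and 2 of 13 macrophage markers (C1QB and SIGLEC1). All loci with a symbol were ones that the study had called in muscle or adipose tissue. CFD (ENSBTAG00000048122), the protease of the alternative complement pathway that fat cells secrete as adipsin, had 5.92, 7.01, 3.57 and 4.83 CPM in CON calves and 1.84, 2.83, 1.17 and 2.35 CPM in 5-HTP-supplemented calves. Its groups were apart and its logFC was -1.38 (standard error 0.34, FDR = 0.0762, edgeR). C1QB (ENSBTAG00000011196), a chain of the recognition molecule of the classical pathway made largely by macrophages, had 19.3, 10.4, 5.31 and 5.98 CPM in CON calves and 2.17, 5.24, 2.45 and 3.97 CPM in 5-HTP-supplemented calves. CON calf 3 and calf 6 nearly met, so its groups are apart by a margin far below their spread. C1S (ENSBTAG00000004840), a protease of the same pathway, had 93.1, 64.5, 37.8 and 24.2 CPM in CON calves and 18.0, 32.4, 16.9 and 19.4 CPM in 5-HTP-supplemented calves, and calf 6 was above CON calf 4. CR2 (ENSBTAG00000038496), a complement receptor of B cells and follicular dendritic cells, had 2.54, 4.08, 2.23 and 0.882 CPM in CON calves and 0.405, 0.943, 0.204 and 0.840 CPM in 5-HTP-supplemented calves, also with overlap at calf 6. The logFC was -1.56 for C1QB, -1.34 for C1S and -2.02 for CR2 (standard errors 0.43, 0.37 and 0.55), each with an FDR of 0.160 in the likelihood ratio test of edgeR. SIGLEC1 (ENSBTAG00000013167), a sialic acid binding receptor of macrophages, had a mean of 1.83 ± 0.628 CPM in CON and 0.648 ± 0.181 CPM in 5-HTP calves (SD over 4 calves), and CSF1 (ENSBTAG00000000283), the growth factor of macrophages, 15.5 ± 3.72 and 8.11 ± 2.33 CPM. Both had an FDR of 0.182 (edgeR), with a logFC of -1.49 and -0.93, and in both all CON calves were above all 5-HTP-supplemented calves. MRXA5 (ENSBTAG00000022150), as the study's table spells the symbol of matrix remodeling associated 5, a secreted matrix protein, had 28.5, 16.1, 10.7 and 11.0 CPM in CON calves and 5.12, 9.39, 7.35 and 6.16 CPM in 5-HTP-supplemented calves (logFC -1.24, standard error 0.33, FDR = 0.139, edgeR).

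Either calf 1 or calf 2 was the highest CON calf in all 7 of these genes. Without both, the direction held in each gene and none had an FDR at or under 0.20, with a logFC of -1.04 for CFD, -0.71 for C1QB, -0.52 for C1S, -1.38 for CR2, -1.09 for SIGLEC1, -0.70 for CSF1 and -0.64 for MRXA5. Of the 7 genes, 5 were more than 2-fold higher in adipose tissue than in muscle, a tissue bias described further on. On the log2 scale it was 2.22 for CFD, 2.26 for C1QB, 1.79 for CR2, 2.48 for SIGLEC1 and 1.2 for CSF1. C1S was higher in adipose tissue by less, at 0.47, and MRXA5 had -0.31. Loci of strong adipose bias are given beside these genes as a description. Of the 42 tested loci more than 32-fold higher in adipose tissue, 4 were lower at P at or under 0.01 (9.52%, beside 1.12% of all tested loci). In this class 0 were higher (beside 0.442% of all), and 1, PAPSS2, was a DEG. The bias of PAPSS2 was 3.83 in CON calves alone, which is under 32-fold, and 6.70 in 5-HTP-supplemented calves alone. Classes were drawn on the bias averaged over all 8 calves, which rises where 5-HTP-supplemented muscle is lower. The shares and sums of the adipose-biased classes are therefore not independent of the shift in muscle. The summed CPM of these 42 loci in muscle was 226, 181, 165 and 170 in CON calves and 152, 147, 150 and 153 in 5-HTP-supplemented calves, so that the groups did not overlap and calf 1 was highest. The summed CPM of the 188 loci 8 to 32-fold higher in adipose tissue ranged from 1186 to 1506 in CON calves and from 1141 to 1253 in 5-HTP-supplemented calves, with overlap. Of these loci 4 were lower (2.13%) and 2 higher (1.06%) at P at or under 0.01. The sums of the 2184 loci 2 to 8-fold higher in adipose tissue also overlapped, at 26248 to 29581 in CON and 25105 to 27320 in 5-HTP calves. Of these, 54 were lower (2.47%) and 8 higher (0.366%) at that P. The part of fat tissue within the muscle samples in the lower values of CFD and the other genes was not tested. A symbol was paired with 1 of 14 adipocyte markers, so this list could not be summed, and its defining markers were not analysed here.

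The sarcomeric genes called were TTN and IGFN1, both lower. The locus that carries the symbol TTN (XLOC_017327), titin being the giant elastic protein that spans the sarcomere, had 39.5, 67.8, 48.5 and 37.1 CPM in CON calves and 16.9, 23.6, 14.6 and 24.1 CPM in 5-HTP-supplemented calves. The groups were well apart, and the logFC was -1.29 (standard error 0.25, FDR = 0.00103, edgeR). Loci ENSBTAG00000054051 (XLOC_017323) and ENSBTAG00000052033 (XLOC_017324), a few numbers before it in the merged annotation and without a symbol, were also lower. ENSBTAG00000054051 had 48.4, 82.4, 50.7 and 47.6 CPM in CON calves and 22.4, 27.2, 23.7 and 23.6 CPM in 5-HTP-supplemented calves, with a logFC of -1.24 (standard error 0.21, FDR = 8.38e-05, edgeR), the second smallest FDR of the comparison. ENSBTAG00000052033 had 35.0, 71.8, 43.1 and 39.3 CPM in CON calves and 18.3, 28.2, 23.3 and 25.1 CPM in 5-HTP-supplemented calves (logFC -0.996, standard error 0.25, FDR = 0.0762, edgeR). In these 3 loci CON calf 2 was the highest CON calf and calf 5 or calf 7 the lowest 5-HTP-supplemented calf. Without CON calves 1 and 2 the logFC remained at -1.12, -1.02 and -0.80 in TTN, ENSBTAG00000054051 and ENSBTAG00000052033, each with an FDR at or under 0.20 (0.00397, 9.44e-07 and 0.0324, edgeR).

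The loci with numbers around these 3 did not all fall with them. XLOC_017325 had a logFC of -0.85 (standard error 0.25) and missed the threshold (FDR = 0.292, edgeR), XLOC_017326 had -0.38 (standard error 0.39), and XLOC_017322 and XLOC_017328 had 0.39 (standard error 0.27) and 0.12 (standard error 0.19). XLOC_017328 held 237600 counts summed over the CON calves and 236294 over the 5-HTP-supplemented calves, against 4513 and 1674 for the locus named TTN. Which of these loci are parts of the same gene cannot be read from the files used here, and these neighbors were picked after the values were seen. IGFN1 (ENSBTAG00000046177), an immunoglobulin domain protein of the Z-disc region, was the most abundant DEG by CPM, with 4895, 2596, 1957 and 2516 CPM in CON calves and 1057, 1828, 1076 and 1428 CPM in 5-HTP-supplemented calves. CON calf 3 and calf 6 were the closest pair, and the groups did not overlap. The logFC was -1.15 (standard error 0.29, FDR = 0.0762, edgeR), and without CON calves 1 and 2 it was -0.73 (FDR = 0.291, edgeR).

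Of the 12 higher DEGs, 5 beside IFI47 had a symbol. ANKRD37 (ENSBTAG00000018453), an ankyrin repeat gene induced by hypoxia inducible factors, had 2.27, 3.01, 2.01 and 2.88 CPM in CON calves and 5.60, 5.47, 6.94 and 6.10 CPM in 5-HTP-supplemented calves. Every 5-HTP-supplemented calf was clearly above every CON calf, with a small spread in both groups. The logFC was 1.24 (standard error 0.26, FDR = 0.00524, edgeR) and stayed between 1.14 and 1.33 with each calf left out in turn. LMX1B (ENSBTAG00000049695), a LIM homeodomain transcription factor of limb and kidney development, had 0.581, 1.51, 0.803 and 0.997 CPM in CON calves and 1.73, 2.78, 3.62 and 3.08 CPM in 5-HTP-supplemented calves (logFC 1.50, standard error 0.40, FDR = 0.123, edgeR). The locus that carries the symbol ASCC2 (XLOC_012438), a subunit of the activating signal cointegrator complex, had 29.1, 36.8, 35.6 and 29.3 CPM in CON calves and 82.2, 48.0, 47.9 and 49.4 CPM in 5-HTP-supplemented calves. The groups were apart, while calf 5 alone was far above the others, and the logFC was 0.80 (standard error 0.22, FDR = 0.160, edgeR). Without calf 5 it was 0.57 (FDR = 0.769, edgeR), and 2 of the 8 fits that left out a calf kept it at or under 0.20.

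WDR86, a WD repeat gene, was listed at a pair of loci. The Ensembl locus (ENSBTAG00000006232) had 17.5, 24.0, 22.2 and 14.8 CPM in CON calves and 58.6, 23.3, 37.8 and 48.7 CPM in 5-HTP-supplemented calves, and the locus XLOC_030964 had 6.60, 13.8, 23.4 and 8.25 CPM in CON calves and 50.4, 20.8, 48.0 and 37.5 CPM in 5-HTP-supplemented calves. In both, calf 6 was within the CON range and the other 3 5-HTP-supplemented calves were above it. The logFC was 1.10 (standard error 0.28, FDR = 0.0762, edgeR) and 1.59 (standard error 0.38, FDR = 0.0666, edgeR). The sources do not state whether reads were counted by strand, so reads of overlapping or opposite models at this gene cannot be told apart, and the pair is not 2 independent observations.

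The other 6 higher DEGs had no symbol, and 5 of them had a mean under 2 CPM in both groups. XLOC_040380 had 10, 12, 5 and 12 counts in CON calves and 103, 23, 27 and 22 in 5-HTP-supplemented calves, or 0.528, 0.476, 0.223 and 0.460 CPM against 3.79, 1.08, 1.38 and 1.23 CPM (logFC 2.15, standard error 0.54, FDR = 0.0762, edgeR). Without calf 5 its logFC was 1.53 (FDR = 0.582, edgeR). XLOC_018883 had 3, 11, 5 and 4 counts in CON calves and 41, 12, 23 and 16 in 5-HTP-supplemented calves (logFC 2.06, standard error 0.54, FDR = 0.0979, edgeR), and XLOC_039781 had 2, 6, 3 and 6 against 12, 15, 24 and 14 counts (logFC 2.08, standard error 0.57, FDR = 0.120, edgeR). In each of them the groups were apart in CPM, on few reads. XLOC_039781 reached 10 counts in 5-HTP-supplemented calves alone, so it passed the filter only through that group. XLOC_029934 and XLOC_017727, outside the rule for unnamed loci and listed to complete the set, had a logFC of 2.52 (standard error 0.69) and 2.04 (standard error 0.56), both with an FDR of 0.160 (edgeR), and each had a CON calf with 0 counts. All of these 5 loci have a locus number alone. With XLOC_030964 and the ASCC2 locus, which have a symbol but no Ensembl identifier, 7 of the 12 higher DEGs were gene models without an Ensembl identifier, beside 17.1% of all tested loci.

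Among lower DEGs without a symbol, XLOC_012144 had the least varied CON group of the DEGs, at 1.11, 0.911, 0.892 and 0.959 CPM, against 0.147, 0.330, 0.357 and 0.280 CPM in 5-HTP-supplemented calves. The groups were far apart for their spread, from 20 to 25 and 4 to 7 counts per calf, and the logFC was -1.80 (standard error 0.47, FDR = 0.0762, edgeR), or -1.75 without CON calves 1 and 2 (FDR = 0.233, edgeR). XLOC_012144 reached 10 counts in CON calves alone, so it passed the filter only through the group in which it was high. XLOC_029760 had 21.7, 7.57, 16.5 and 9.55 CPM in CON calves and 5.19, 7.45, 5.92 and 5.43 CPM in 5-HTP-supplemented calves, where CON calf 2 and calf 6 nearly met (logFC -1.20, standard error 0.32, FDR = 0.155, edgeR). Without CON calf 1, its highest calf, the logFC was -0.90 (FDR = 0.4003), and without CON calves 1 and 2 it was -1.12 (FDR = 0.0474, edgeR). ENSBTAG00000045751, also outside the rule, overlapped between groups, with 25.7, 32.9, 5.40 and 10.4 CPM in CON calves and 6.30, 4.25, 5.62 and 7.39 CPM in 5-HTP-supplemented calves (logFC -1.66, standard error 0.45, FDR = 0.160, edgeR). Its high values were those of CON calves 1 and 2, and without them the logFC was -0.43 (FDR = 0.997, edgeR).

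**Figure D2:**
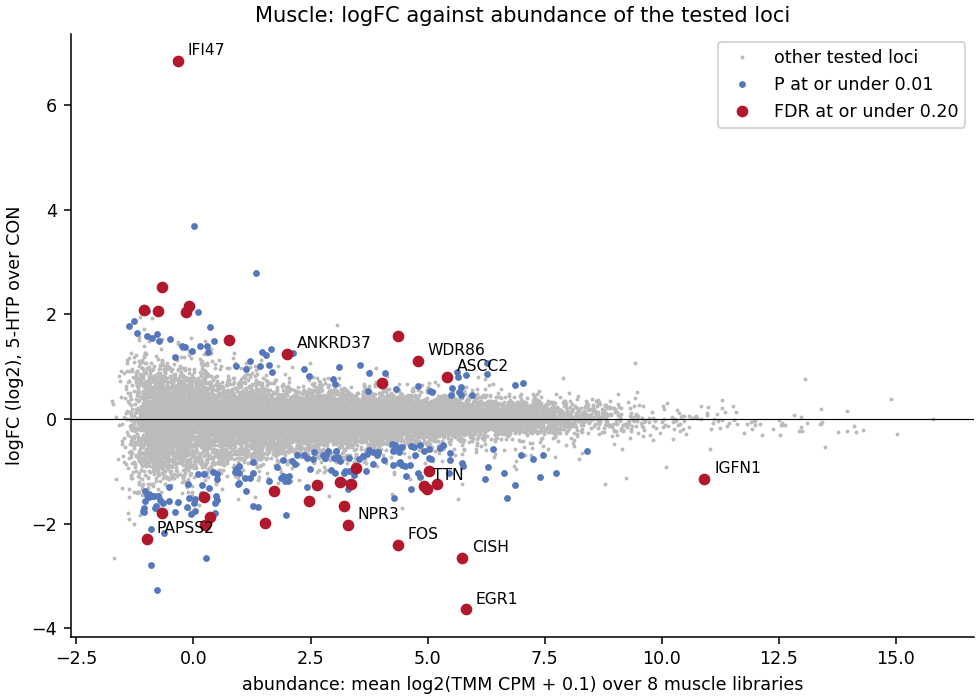
The logFC of each of the 15624 tested loci (5-HTP over CON, log2) against its mean log2(CPM + 0.1) over the 8 muscle libraries, with loci at P at or under 0.01 in blue and the 34 DEGs in red. The spread of logFC narrows with abundance, and the DEGs with the largest positive logFC lie at low abundance while EGR1, CISH and FOS lie above the median abundance of 3.13.

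The effect that could be detected depended on abundance. In the lowest quartile of loci by abundance (up to 1.90 CPM) the median standard error of logFC was 0.51, and in the highest quartile (from 27.6 CPM) it was 0.20. For a locus of median standard error, the 95% interval reached 2.0-fold to either side in quartile 1, 1.51-fold in quartile 2, 1.35-fold in quartile 3 and 1.31-fold in quartile 4. The smallest absolute logFC of a DEG was 1.49 in quartile 1 and 0.69 in quartile 3. Of the 12 higher DEGs, 7 lay in the lowest quartile and 1, 2 and 2 in the others, while the 22 lower DEGs were divided 5, 4, 6 and 7 from the lowest to the highest quartile. The median abundance of the 175 shifted loci lower in 5-HTP-supplemented calves was 2.82 on the log2(CPM + 0.1) scale, and that of the 69 higher was 1.61, beside 3.13 over all tested loci. The percent of loci shifted lower was 1.41, 1.08, 1.15 and 0.845 from quartile 1 to 4, and the percent shifted higher was 0.717, 0.410, 0.205 and 0.435. CPM are not divided by transcript length, so these are comparisons of read abundance and not of molecules. An Ensembl identifier was present for 89.7% of the lower and 62.3% of the higher shifted loci, against 82.9% of all.

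The groups differed in how much their calves varied. The median over loci of the SD of log2(CPM + 0.1) was 0.389 in CON calves and 0.241 in 5-HTP-supplemented calves, and the SD was larger in CON in 72.7% of loci. This depended on CON calf 1. Without it, the median SD in CON was 0.256, and the SD was larger in CON in 53.9% of loci. The median distance of a calf from its group mean was 0.382 for CON calf 1, 0.204 to 0.247 for CON calves 2 to 4, and 0.143 to 0.172 for 5-HTP-supplemented calves. Among DEGs, the SD was larger in CON in 17 of the 22 lower and 6 of the 12 higher loci. The lower DEGs split by the calf that was highest in CON. CISH, PAPSS2, IGFN1, AOC1, CCN2, MRXA5, C1QB, C1S, CSF1, XLOC_012144 and XLOC_029760 were highest in CON calf 1 (11 loci). EGR1, FOS, NPR3, TTN, CFD, CR2, SIGLEC1 and the Ensembl loci without a symbol were highest in CON calf 2 (10 loci), and RGS16 was highest in CON calf 4. Calf 6 was the highest 5-HTP-supplemented calf in 11 of the 22. In 8 of the 12 higher DEGs the highest 5-HTP-supplemented calf was calf 5.

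**Figure D3:**
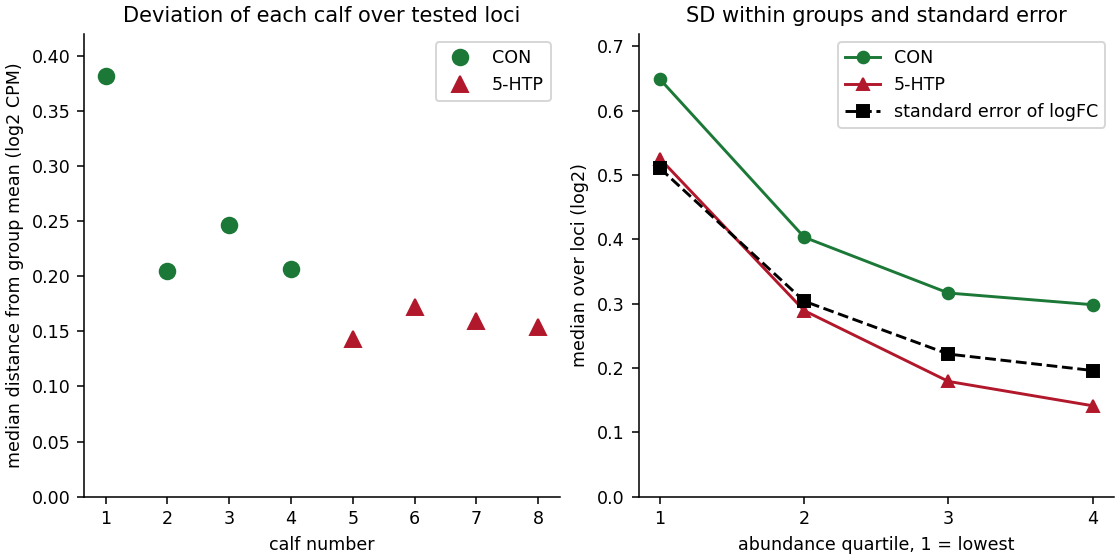
Left, the median over tested loci of each calf's absolute distance from its group mean in log2(CPM + 0.1), and right, the median SD within each group and the median standard error of logFC (log2) by abundance quartile. CON calf 1 is the farthest from its group, at 0.382, and in every quartile the CON line lies above the 5-HTP line.

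With CON calf 1 left out, 17 of the 34 DEGs had an FDR at or under 0.20 in edgeR, with CON calf 2 left out 20, and with both left out 16, of which 9 were lower. All 34 kept their direction in each of these fits and in every fit that left out 1 calf. Those at or under 0.20 in all 8 fits were IFI47, ENSBTAG00000054051, CISH, TTN, EGR1, NPR3, ANKRD37 and FOS, another 3 (XLOC_040380, PAPSS2 and XLOC_030964) passed in 6 or 7, and 23 passed in 5 or fewer. The median logFC of the 22 lower DEGs was -1.53 with all calves and -1.10 without CON calves 1 and 2.

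The tissue bias of a locus was taken as its log2 CPM in adipose tissue less its log2 CPM in muscle, averaged over the 8 calves, with TMM over all 16 libraries. Its median was -0.14 over all tested loci. Shifted loci that were lower in 5-HTP-supplemented muscle had a median bias of 0.46, and those that were higher a median of -1.80. Thus 35.4% of the lower loci were more than 2-fold higher in adipose tissue, compared with 15.5% of all loci, and 58.0% of the higher loci were more than 2-fold higher in muscle, compared with 24.3% of all. The muscle values enter both the shift and the bias, which moves the bias of lower loci down in CON calves and up in 5-HTP-supplemented calves. In CON calves alone, the median bias was 0.10 for lower and -1.09 for higher loci, and in 5-HTP-supplemented calves alone it was 0.85 and -2.16, beside -0.15 for all loci in either group. Library totals without TMM moved the median of all loci by 1.14, so the values are best read relative to it. They were 0.60 and -1.65 with TMM and 0.62 and -1.63 without. The strongest muscle bias was found among lower DEGs, where IGFN1, TTN, ENSBTAG00000054051, ENSBTAG00000052033 and XLOC_029760 (5 of the 22) were more than 32-fold higher in muscle, against 0 of the 12 higher DEGs and 3.18% of all tested loci. Lower DEGs therefore lay at both ends, with 7 adipose-biased and 8 muscle-biased by more than 2-fold, while 7 of the 12 higher DEGs were muscle-biased and 0 adipose-biased. Of the 497 tested loci more than 32-fold higher in muscle, 12 were shifted lower (2.41%, beside 1.12% of all). Another 6 were shifted higher (1.21%, beside 0.442% of all). TTN, ENSBTAG00000054051 and ENSBTAG00000052033 have near locus numbers and may be parts of the same gene, so the 5 may not be separate observations. These medians and shares are descriptions without a test.

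**Figure D4:**
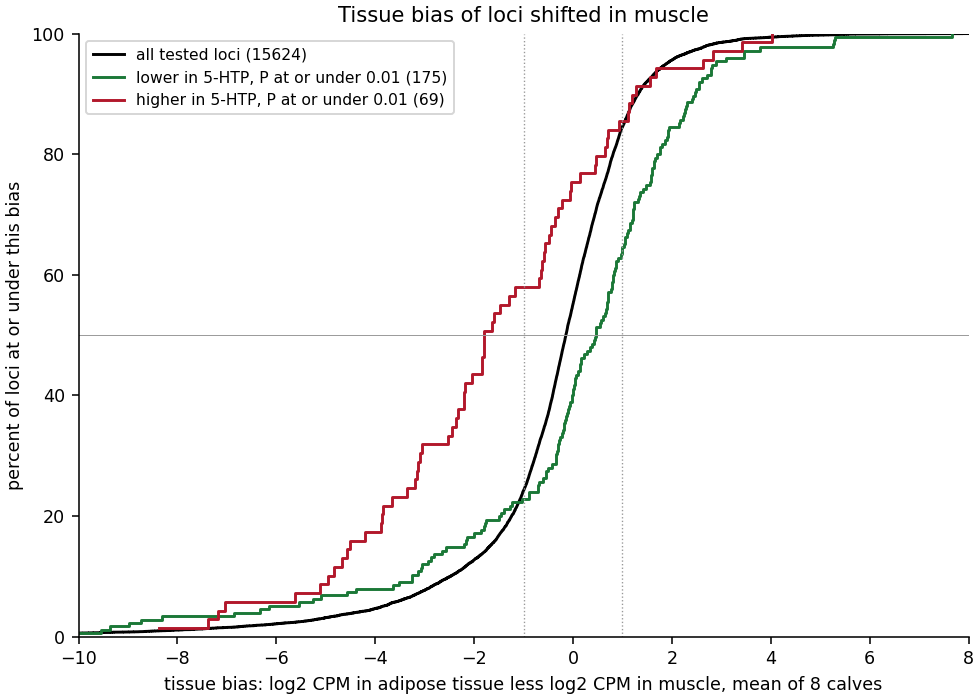
Percent of loci at or under each value of tissue bias (log2 CPM in adipose tissue less log2 CPM in muscle, mean of 8 calves) for all 15624 tested loci in black, 175 loci lower in 5-HTP-supplemented muscle in green and 69 higher in red. Relative to the black curve, the red curve lies to the left (more abundant in muscle) and the upper part of the green curve to the right (more abundant in adipose tissue), and dotted lines mark a 2-fold bias.

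The same calves allowed the muscle differences to be set beside those in adipose tissue. Of the 34 DEGs of muscle, 25 were tested in adipose tissue, 17 with a logFC in the same direction, and 1, IFI47, was at or under an FDR of 0.20 in both. In adipose tissue, IFI47 was at 0.250 ± 0.358 CPM in CON and 20.2 ± 5.85 CPM in 5-HTP calves (SD over 4 calves), with a logFC of 6.23 (standard error 0.64, FDR = 6.79e-14, edgeR). The logFC in adipose tissue was 2.73 (standard error 0.81) for XLOC_029934, 0.61 (standard error 0.20) for ENSBTAG00000004815, -1.08 (standard error 0.37) for CFD, -2.51 (standard error 0.98) for ENSBTAG00000045751 and, opposite to muscle, 0.84 (standard error 0.39) for PAPSS2. With IFI47 these are the 6 DEGs of muscle with an unadjusted P at or under 0.05 in adipose tissue, and all but IFI47 had an FDR over 0.20 there. Of the 16 lower DEGs tested in adipose tissue 10 were lower there, and of the 9 higher ones 7 were higher there. The same counts were not taken over all 14460 loci tested in both tissues. Whether the shared directions and the 6 loci at P at or under 0.05 exceed that background was therefore not tested. A term for the difference between tissues in the response to 5-HTP, tested over all 16 libraries in edgeR, was at or under an FDR of 0.20 for 19 of 20534 loci (0.0925%), of which 5 were DEGs of muscle. With the quasi-likelihood test 0 loci passed, and 775 of the 20534 had an unadjusted P at or under 0.05. That share is smaller than the 0.05 that would be met without any difference between tissues.

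These 5 were EGR1, NPR3, PAPSS2, TTN and IGFN1. In adipose tissue, EGR1 was at 126 ± 57.5 CPM in CON and 180 ± 193 CPM in 5-HTP calves (SD over 4 calves), and the muscle logFC was lower than the adipose logFC by a term of -4.17 (standard error 1.03, FDR = 0.133, edgeR). NPR3 had 21.8 ± 11.0 and 27.5 ± 7.91 CPM in adipose tissue, and its term was -2.36 (standard error 0.60, FDR = 0.133, edgeR). PAPSS2 had 32.2 ± 12.1 and 57.8 ± 29.0 CPM in adipose tissue, and its term was -3.16 (standard error 0.67, FDR = 0.00516, edgeR). When calf was added as a replicate block, the FDR of the term was 0.886 for EGR1, 0.277 for NPR3 and 3.22e-04 for PAPSS2 (edgeR), with terms of -2.46, -2.23 and -3.12. EGR1 and NPR3 thus missed the threshold in the paired fit, the size of the NPR3 term being close to that without the block. The block also brought XLOC_030964 (WDR86) to an FDR of 0.0552, with a term of 1.63. TTN and IGFN1 had 0 counts in the adipose tissue of all CON calves and at most 11 and 8 counts in that of any 5-HTP-supplemented calf, so their terms of -5.93 and -6.21 compare a muscle difference with an adipose difference that rests on a few reads. CISH and FOS, with adipose logFC of -0.61 (standard error 0.43) and 0.64 (standard error 0.74), had terms of -2.06 and -3.07 that missed the threshold (FDR = 0.569 and 0.483, edgeR).

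**Figure D5:**
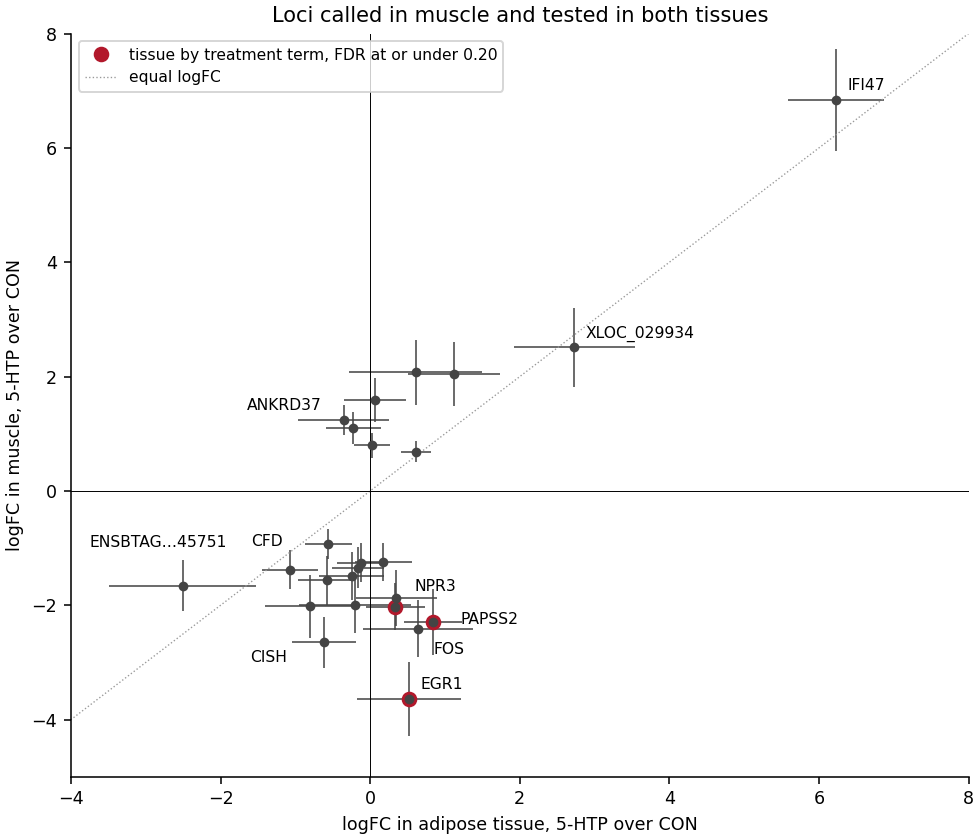
The logFC in muscle (y axis) against the logFC in adipose tissue (x axis) of the 25 DEGs of muscle tested in both tissues, with bars of 1 standard error, a dotted line at equal logFC, and red points where the term for the tissue difference had an FDR at or under 0.20. IFI47 lies near the dotted line at the upper right, while EGR1, NPR3 and PAPSS2 lie below 0 in muscle and above 0 in adipose tissue.

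Symbols were also paired with 5 tested loci that were not DEGs of muscle, and all 5 had overlapping groups. They are given because they are the remaining loci that can be named, chosen after the values were seen. ANKRD33B had 151 ± 32.6 CPM in CON and 153 ± 14.2 CPM in 5-HTP calves (SD over 4 calves), with a logFC of 0.01 and a 95% interval of -0.36 to 0.38. COLQ, which anchors acetylcholinesterase at the neuromuscular junction, had 3.80 ± 1.80 CPM in CON and 3.73 ± 1.73 CPM in 5-HTP calves. Its logFC was -0.02 with an interval of -0.90 to 0.86, so a difference of nearly that size in either direction was not excluded. The intervals were -0.85 to 1.47 for the amino acid transporter SLC7A8, -1.15 to 1.02 for REEP6 and -0.07 to 2.54 for CYP4F2, a fatty acid hydroxylase.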

How the data were processed

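RNA-Seq was done on gluteus medius muscle and subcutaneous adipose tissue of 8 calves, 4 CON and 4 given 5-HTP (16 libraries). The authors captured poly-A RNA, sequenced paired ends on a NovaSeq, trimmed with Trim Galore 0.4.4 (FastQC 0.11.7), aligned to ARS-UCD1.2 with Hisat2, merged gene models with Cufflinks 2.2.1, and deposited whole-number read counts per gene from htseq-count, without normalization. Whether counting used strand is not given in the sources used here.

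From these counts, the 44265 deposited rows were reduced to 42862 loci by keeping 1 row for each of the 1166 loci listed under more than 1 identifier. Muscle libraries were tested in R 4.3.3 with edgeR 4.0.16 (TMM, default dispersions, treatment alone, likelihood ratio test, Benjamini-Hochberg), as in the study's methods. Alternatives were DESeq2 1.42.0 and the quasi-likelihood test of edgeR, and single loci had an exact permutation test. The common biological coefficient of variation was 0.279. Standard errors come from the fitted model. Spread, abundance and tissue bias used log2(CPM + 0.1). All 16 libraries entered the test of the tissue difference, where calf numbers were taken as the same calf in both tissues. On that assumption, which the sample labels do not state, this term was also fitted as a paired design with the calf as a replicate block. Further alternatives were RLE scaling, other filters, all deposited rows, dispersions from all libraries, a stricter FDR and leaving out each calf. Leaving out CON calves 1 and 2 together and using library totals for tissue bias were added after the data were seen. Steps were tested on simulated counts. Python 3.11.15 was used for summaries and figures.

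Symbols came from the study's supplementary tables, which pair 31 identifiers (30 loci). All of these were called by the study in muscle or adipose tissue, so a named gene being a DEG is not independent evidence. The reference table held an Ensembl identifier for 0 genes. The 24 gene lists planned (407 entries) matched 21 entries in 13 lists, and were not summarised for that reason, and sequences, coordinates and most gene names were not used here. Named were all DEGs with a symbol and the 4 DEGs without a symbol with the smallest P in each direction. The comparison, the members and the lists were chosen with earlier results of these data known.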

Additional observations from a re-analysis of the deposited data

Results flagged for a closer look

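In 9 of the 68 groups of 4 calves (34 DEGs in each treatment), 1 calf was far from the other 3 by Dixon's criterion, where chance gives about 1 in 20 (3.4 of 68). That rate assumes independent groups of normally distributed values. CPM of loci selected as DEGs, some with near locus numbers, need not meet this, so whether 9 is an excess was not tested. CON calf 2 was the far value in EGR1 (785 CPM), FOS (132 CPM) and ENSBTAG00000054051 (82.4 CPM), and all 3 kept an FDR at or under 0.20 in edgeR without that calf. CON calf 3 was far in IFI47 (0.178 CPM), the other CON calves having no read, so that any read would have been far. Among 5-HTP-supplemented calves, calf 5 was far in XLOC_040380 (3.79 CPM) and ASCC2 (82.2 CPM), both of which missed the threshold without it (FDR = 0.582 and 0.769, edgeR), calf 7 in RGS16 (2.76 CPM) and ENSBTAG00000004815 (18.7 CPM), and calf 6 in C1S (32.4 CPM).

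Without the calf as a block, the tissue by treatment term of edgeR had an FDR at or under 0.20 in 5 DEGs, each with the lower logFC in muscle. With the block, EGR1 (FDR = 0.886) and NPR3 (FDR = 0.277) missed it. The muscle logFC less the adipose logFC was -4.17 for EGR1, -2.36 for NPR3, -3.16 for PAPSS2, -5.93 for TTN and -6.21 for IGFN1. The last 2 have almost no adipose reads. The quasi-likelihood test of edgeR called none of the 5.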

How the results depend on the processing

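The number of DEGs (34) became 1 by quasi-likelihood (edgeR), 61 without a filter, 19 with dispersions from all 16 libraries, 8 at an FDR of 0.05 and 70 without CON calves 1 and 2. With each calf left out it ranged from 16 to 186, with 62 without CON calf 3, 186 without CON calf 4, 17 without calf 5, 148 without calf 6 and 16 without calf 7 or calf 8. The 244 loci at P at or under 0.01 became 134 by quasi-likelihood, 466 without a filter, and 130 to 397 with a calf left out (397 without CON calf 4, 149, 135 and 130 without calves 5, 7 and 8). The tissue term (19 loci) gave 0 with the quasi-likelihood test and 19 with the replicate block, 12 of them shared. Among DEGs, EGR1 (term -2.46) and NPR3 (-2.23) missed the threshold with the block and XLOC_030964 passed it. The share of loci with a larger SD in CON (72.7%) was 53.9% to 75.4%, the lowest without CON calf 1. Abundance medians were 1.47 to 3.31 for lower loci (1.47 without calf 5) and 1.09 to 2.37 for higher loci. Tissue bias relative to all loci, with a calf left out, was 0.03 to 0.81 for lower loci, the lowest without calf 7, and -1.95 to -0.56 for higher loci. In CON calves alone it was 0.25 and -0.94, and in 5-HTP-supplemented calves alone 0.99 and -2.01. For higher loci it was -1.10, -0.77, -0.56, -0.72 and -0.60 without calves 1, 2, 4, 7 and 8. The sign of both biases held in every alternative run. The cause of these changes was not tested. All 34 DEGs kept their direction under every alternative that gave a value, and RLE scaling, filterByExpr and all deposited rows kept all 34 at or under the threshold. With 4 calves a group, depth limits loci near 1 CPM most.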
